A study of Mus musculus with 9 samples.

Results

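Transcripts of 10 enzymes and cofactors that write or erase repressive marks on DNA and histones were followed in CD8+ T cells sorted from mouse melanomas. The genes were Dnmt1, Uhrf1, Dnmt3a and Dnmt3b of DNA methylation, Tet1, Tet2 and Tet3 of DNA demethylation, Ezh2 and Ezh1 of Polycomb repression, and Suv39h1 of histone H3 lysine 9 methylation. They were chosen by name, and all 10 were found among the 56860 genes of the count table. Each of the 10 passed the filter on low counts that left 15292 genes to test, though Tet1 had few reads in some groups. The study sorted tumour-infiltrating CD8+ T cells by their surface α2,6-linked sialoglycans, sugar chains that end in sialic acid, and by PD-1, an inhibitory receptor (gene Pdcd1), and sequenced polyadenylated RNA in bulk. Sialoglycan-low PD-1-positive cells (SiaLo_PD1pos), sialoglycan-high PD-1-positive cells (SiaHi_PD1pos) and sialoglycan-high PD-1-negative cells (SiaHi_PD1neg) had 3 libraries each, with 9714020 to 15030442 reads counted in genes. All mice were wild type and none was treated. The series text gives as its purpose a bulk check of a link between these glycans and T cell phenotype that single-cell data had shown. The tumour is named B16-OVA in the sample labels, a B16 melanoma line that carries ovalbumin, and B16F10, another B16 line, in the series text. The sources used here give neither ages, numbers of mice nor pooling. No label says that replicates came from separate animals, so the p-values speak of library-to-library spread only, and that may be technical.

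When DNA is copied, Uhrf1 binds the hemimethylated CpG sites behind the replication fork and recruits Dnmt1, which copies the methyl mark to the daughter strand, while Dnmt3a and Dnmt3b set new marks. The Tet dioxygenases oxidise 5-methylcytosine, a step towards its removal. Ezh2 and Ezh1 are the alternative catalytic subunits of Polycomb repressive complex 2, which methylates lysine 27 of histone H3, and Ezh2 is known as the form of dividing cells. In mouse CD8+ T cells, Dnmt3a, Ezh2 and Suv39h1 are known for shutting down naive and memory genes as effector cells form, and loss of Tet2 is known to favour memory.

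Promoter windows were compared first, because 4 of the genes described below each spanned less than 1 log2 unit over the libraries relative to DNA replication genes. RefSeq windows of GRCm38.p6, from 250 bases before to 50 bases after an annotated start, were available for all 10 genes and numbered 16. They were searched on both strands for the 4 words TTTCCCGC, TTTGGCGC, TTTCGCGC and TTTGCCGC, which form the core of the E2F motif, the element known from promoters of replication genes. The words do not overlap one another in these windows. A word was present in 4 of the 16 windows and in 4 of the 10 genes. It was present in 2.26% of all 32851 windows, 3.88% of the 13907 windows of tested genes and 5.06% of the 3837 windows with at least 30 CpG sites. By gene, 4.67% of 10925 tested genes with a window held a word. The same windows were also searched for CCAAT and TTTGAA, elements of other kinds. CCAAT was present in 5 of the 10 genes, against 42.9% of tested genes, and TTTGAA in 2, against 15%. Among genes of S phase and DNA replication, 8 of the 24 with a window held a word. Shown next, with words in capitals, are the windows with a word and that of Ezh1, the counterpart of Ezh2, which holds none. They are Dnmt1 at chr9:20952574-20952873 on the minus strand, Uhrf1 at chr17:56304063-56304362 on the plus strand, Ezh2 at chr6:47594981-47595280 on the minus strand, Suv39h1 at chrX:8074312-8074611 on the minus strand and Ezh1 at chr11:101226414-101226713 on the minus strand.
Dnmt1: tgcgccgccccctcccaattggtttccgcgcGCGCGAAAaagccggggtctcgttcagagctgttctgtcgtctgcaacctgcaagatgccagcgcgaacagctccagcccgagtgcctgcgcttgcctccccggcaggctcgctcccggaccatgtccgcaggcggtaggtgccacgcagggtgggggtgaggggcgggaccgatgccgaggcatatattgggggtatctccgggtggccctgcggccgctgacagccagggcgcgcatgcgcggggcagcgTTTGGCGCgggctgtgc
Uhrf1: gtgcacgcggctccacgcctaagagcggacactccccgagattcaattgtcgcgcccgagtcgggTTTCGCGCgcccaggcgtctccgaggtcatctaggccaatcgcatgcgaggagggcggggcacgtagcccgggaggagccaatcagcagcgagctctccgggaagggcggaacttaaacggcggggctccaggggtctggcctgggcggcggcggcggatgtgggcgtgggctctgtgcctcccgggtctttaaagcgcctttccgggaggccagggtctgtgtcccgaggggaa
Ezh2: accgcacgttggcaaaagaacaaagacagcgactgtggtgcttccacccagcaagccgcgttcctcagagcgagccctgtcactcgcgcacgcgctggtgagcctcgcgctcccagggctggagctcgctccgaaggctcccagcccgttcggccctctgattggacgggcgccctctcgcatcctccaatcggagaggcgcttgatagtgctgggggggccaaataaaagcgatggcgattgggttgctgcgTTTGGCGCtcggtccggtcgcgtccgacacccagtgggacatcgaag
Suv39h1: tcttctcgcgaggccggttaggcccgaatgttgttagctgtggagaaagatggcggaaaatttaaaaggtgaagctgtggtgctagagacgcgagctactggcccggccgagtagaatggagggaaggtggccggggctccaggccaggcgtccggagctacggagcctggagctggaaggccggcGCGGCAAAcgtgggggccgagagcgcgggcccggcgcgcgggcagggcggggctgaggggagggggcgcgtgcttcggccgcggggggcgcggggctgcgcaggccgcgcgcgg
Ezh1: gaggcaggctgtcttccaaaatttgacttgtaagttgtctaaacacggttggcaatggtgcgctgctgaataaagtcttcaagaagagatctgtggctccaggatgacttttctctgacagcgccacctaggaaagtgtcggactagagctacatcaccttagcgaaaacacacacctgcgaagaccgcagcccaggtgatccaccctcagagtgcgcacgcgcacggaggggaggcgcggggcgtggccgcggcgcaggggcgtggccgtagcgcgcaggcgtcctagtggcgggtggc
Counted from the annotated start, the words began at positions -219 and 33 in the Dnmt1 window, at -185 in Uhrf1, at 3 in Ezh2 and at -64 in Suv39h1. Windows of Dnmt3a, Dnmt3b, Tet1, Tet2 and Tet3 held none, as did the other windows of Dnmt1, Uhrf1 and Suv39h1. Words and levels did not pair in every gene. Dnmt3b, without a word, was also near the S phase genes in SiaHi_PD1pos against SiaHi_PD1neg. With library factors from those genes its log2 difference was 0.16 there (edgeR adjusted p = 0.686) and 0.88 in SiaLo_PD1pos (adjusted p = 0.0346). A part of the words in any level was not tested. A match describes letters only, counts per gene do not tell which start was used, and binding was not measured.

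Levels are given in CPM, reads of a gene relative to the reads of its library, scaled with TMM factors that set the bulk of genes equal between libraries. The transcript of PD-1 followed its gate, with Pdcd1 at 1122 ± 35.8 CPM in SiaLo_PD1pos, 898 ± 38.0 in SiaHi_PD1pos and 54.9 ± 20.9 in SiaHi_PD1neg (mean ± SD, n = 3). St6gal1, whose product places the sorted α2,6-linked sialic acid, was at 12.3 ± 5.20 CPM in SiaLo_PD1pos, 63.8 ± 8.20 in SiaHi_PD1pos and 98.6 ± 10.1 in SiaHi_PD1neg (mean ± SD, n = 3). The SiaHi_PD1neg libraries had high levels of transcripts known from other cells. The summed level of 10 T cell core genes (receptor chains, Lck and the CD8 chains) was 6370.2 to 7166 CPM in SiaLo_PD1pos and 5645 to 7316 CPM in SiaHi_PD1pos, against 1610.1 to 1753 CPM in SiaHi_PD1neg. Summed over 17 dendritic cell and MHC class II genes, the level was 1681 to 2089.6 CPM in SiaLo_PD1pos and 2793 to 5186 CPM in SiaHi_PD1pos, against 18121 to 20603.5 CPM in SiaHi_PD1neg, and 0 of the 17 genes were at 0 in a whole group. Sums of 14 melanocyte genes were 1916 to 3854 CPM in SiaLo_PD1pos, 991.5 to 1154 CPM in SiaHi_PD1pos and 4590.2 to 9598 CPM in SiaHi_PD1neg. SiaHi_PD1neg was also at the top for 10 plasmacytoid dendritic cell genes at 748 to 800.0, 789 to 920.1 and 4247 to 7356 CPM, for 11 B cell genes at 129.5 to 137, 290.5 to 402 and 709.9 to 1194 CPM and for 15 macrophage genes at 1549 to 1913, 1779 to 3215 and 4157 to 5023 CPM in SiaLo_PD1pos, SiaHi_PD1pos and SiaHi_PD1neg, with Vpreb3 at 0 in every SiaHi_PD1neg library. Every contrast with SiaHi_PD1neg therefore moves with these lists. Summed over 12 genes of CD4 and regulatory T cells the level was 1114 to 1153 CPM in SiaLo_PD1pos, 1429 to 1502 CPM in SiaHi_PD1pos and 659.6 to 835 CPM in SiaHi_PD1neg, and over 11 genes of NK cells 491 to 525 CPM in SiaLo_PD1pos, 357.5 to 482 CPM in SiaHi_PD1pos and 645 to 866 CPM in SiaHi_PD1neg. Ctla4 weighed heavily on the CD4 sum, with means of 789 CPM in SiaLo_PD1pos, 847 in SiaHi_PD1pos and 148 in SiaHi_PD1neg. The mean log2 CPM of the 12 genes was 3.965 to 4.19 in SiaLo_PD1pos, 5.04 to 5.305 in SiaHi_PD1pos and 4.31 to 4.745 in SiaHi_PD1neg. By that mean SiaHi_PD1neg lay above SiaLo_PD1pos, not under it. In SiaLo_PD1pos against SiaHi_PD1pos, 12 of the 17 dendritic cell genes, 4 of the 10 plasmacytoid genes, 3 of 7 tested B cell genes and 4 of the 12 genes of CD4 and regulatory T cells were lower and 0 higher. Of the melanocyte genes 4 of 14 were higher and 0 lower, of the NK cell genes 3 of 11 were higher and 1 lower, and of the 15 macrophage genes 0 were called, with 5 lower and 1 higher at an unadjusted p under 0.05. The part of these lists in the results was not tested. In bulk libraries, fewer cells of a type and less RNA per cell cannot be told apart.

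Counts of all 9 libraries entered 1 quasi-likelihood model in edgeR, and calls needed an adjusted p (Benjamini-Hochberg, over the 15292 genes) under 0.05. Between SiaLo_PD1pos and SiaHi_PD1pos, 0 of the 10 genes were called, where 1.40% of all tested genes were. At an unadjusted p under 0.05 there were 2, 1 higher and 1 lower, where 8.66% of all genes were, 3.30% higher and 5.36% lower. DESeq2 called 0, where 2.95% of its genes were called, and limma-voom with sample quality weights called 3, 1 higher and 2 lower, where 8.32% of all genes were called, 3.54% higher and 4.79% lower. All genes called by edgeR were 0.268% higher and 1.13% lower. Between SiaHi_PD1pos and SiaHi_PD1neg, 6 of the 10 were called higher, 1 lower and 3 not, where 40.2% of all tested genes were called, 21.0% higher and 19.2% lower. The contrast of SiaLo_PD1pos with SiaHi_PD1neg gave the same counts, where 39.4% of all genes were called, 20.5% higher and 18.9% lower. The 1 lower in each was Tet1, which had few reads in both PD-1-positive groups. By SiaLo_PD1pos alone it would not have passed the low-count filter, so a lower level there was in part built into its being tested. Both contrasts share the SiaHi_PD1neg libraries and are not independent. The rises are relative to the bulk of genes, as TMM sets it. When the T cell core genes were set equal instead, which moved all genes down together, 0 of the 10 genes were higher in either contrast with SiaHi_PD1neg, where 1.86% of all genes were in SiaHi_PD1pos and 1.84% in SiaLo_PD1pos.

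**Figure D1:**
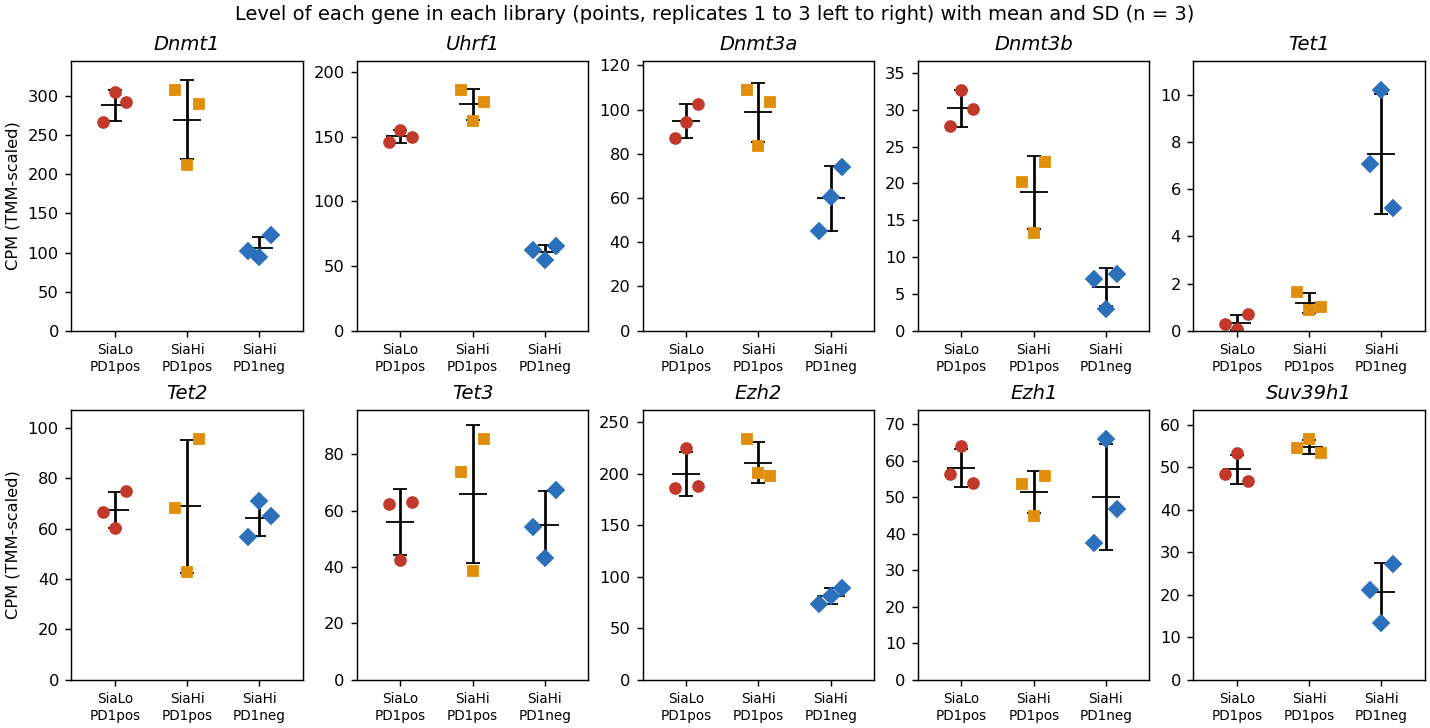
Each panel plots the TMM-scaled CPM of 1 gene (y axis from 0) in the 9 libraries, with SiaLo_PD1pos on the left, SiaHi_PD1pos in the middle and SiaHi_PD1neg on the right, and bars for the mean and SD of 3 libraries. Dnmt1, Uhrf1, Dnmt3a, Dnmt3b, Ezh2 and Suv39h1 sit lower in SiaHi_PD1neg, Tet1 sits higher there, and Tet2, Tet3 and Ezh1 overlap, on a scale that sets the bulk of genes equal.

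The maintenance pair, Dnmt1 and Uhrf1, had the highest mean levels per length in SiaLo_PD1pos, SiaHi_PD1pos and SiaHi_PD1neg and was higher in both PD-1-positive groups under TMM, though not under T cell core scaling. Dnmt1, which the table places on the minus strand of chromosome 9 (start 20818505, end 20871184) of its own coordinates, was at 267, 305 and 293 CPM in SiaLo_PD1pos libraries 1 to 3, at 308, 212 and 290.5 CPM in SiaHi_PD1pos and at 102, 94.5 and 122 CPM in SiaHi_PD1neg. The PD-1-positive groups overlapped each other, and all 6 of their libraries lay above all 3 of SiaHi_PD1neg. The fold was 2.55 for SiaHi_PD1pos against SiaHi_PD1neg (log2 1.35, SE 0.15, adjusted p = 1.63e-05) and 2.72 for SiaLo_PD1pos against SiaHi_PD1neg (log2 1.44, SE 0.16, adjusted p = 7.30e-06). For SiaLo_PD1pos against SiaHi_PD1pos the log2 difference of Dnmt1 was 0.093, with a 95% interval of -0.23 to 0.42. Uhrf1 lies on the plus strand of chromosome 17 (start 56610321, end 56630486). Its level was 146, 156 and 149.6 CPM in SiaLo_PD1pos, 186, 162 and 177 CPM in SiaHi_PD1pos and 62.2, 54.6 and 65.2 CPM in SiaHi_PD1neg. The groups did not overlap, and SiaHi_PD1pos was the highest. Uhrf1 rose 2.89-fold in SiaHi_PD1pos against SiaHi_PD1neg (adjusted p = 7.73e-07) and 2.48-fold in SiaLo_PD1pos against SiaHi_PD1neg (adjusted p = 2.07e-06). The step between the PD-1-positive groups, a log2 difference of -0.22 for SiaLo_PD1pos against SiaHi_PD1pos (95% interval -0.48 to 0.038, adjusted p = 0.719), did not pass in edgeR and passed in limma-voom (adjusted p = 0.00848).

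Both de novo methyltransferases were higher in the PD-1-positive groups under TMM, and not under T cell core scaling. Dnmt3a, on the plus strand of chromosome 12 (start 3856007, end 3964443), was at 87.2, 94.5 and 103 CPM in SiaLo_PD1pos, 109, 83.8 and 104 CPM in SiaHi_PD1pos and 45.0, 60.6 and 74.2 CPM in SiaHi_PD1neg. Groups that were PD-1-positive overlapped each other and lay above SiaHi_PD1neg. The rise was the smallest of the 6, 1.65-fold in SiaHi_PD1pos (log2 0.72, SE 0.18, adjusted p = 0.00564) and 1.58-fold in SiaLo_PD1pos (log2 0.66, SE 0.18, adjusted p = 0.00962), both against SiaHi_PD1neg. Dnmt3b, on the plus strand of chromosome 2 (start 153491370, end 153529650), was at 27.8, 32.7 and 30.2 CPM in SiaLo_PD1pos, 20.2, 13.3 and 22.9 CPM in SiaHi_PD1pos and 7.07, 2.91 and 7.66 CPM in SiaHi_PD1neg. Its groups were stepped without overlap, SiaLo_PD1pos at the top. The fold was 5.16 for SiaLo_PD1pos against SiaHi_PD1neg (log2 2.37, SE 0.33, adjusted p = 8.55e-05) and 3.21 for SiaHi_PD1pos against SiaHi_PD1neg (log2 1.68, SE 0.33, adjusted p = 0.00122). Between SiaLo_PD1pos and SiaHi_PD1pos the log2 difference of 0.68 (95% interval 0.011 to 1.36) had an unadjusted p of 0.0469 and an adjusted p of 0.559 in edgeR, and passed in limma-voom (adjusted p = 0.0152). Within a library, where scaling cancels, the reads of Dnmt3a per read of Dnmt3b were 3.14, 2.89 and 3.40 in SiaLo_PD1pos, 5.39, 6.30 and 4.52 in SiaHi_PD1pos and 6.36, 20.9 and 9.69 in SiaHi_PD1neg. The ratio was lowest in SiaLo_PD1pos, with no overlap between the 3 groups, and was not tested.

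Of the demethylating enzymes, Tet1 stood apart from Tet2 and Tet3. Tet1, on the minus strand of chromosome 10 (start 62640349, end 62744775), had 4, 1 and 8 reads in the SiaLo_PD1pos libraries, 22, 11 and 13 in SiaHi_PD1pos and 97, 137 and 53 in SiaHi_PD1neg, or 0.268, 0.0722 and 0.692 CPM in SiaLo_PD1pos, 1.65, 0.866 and 1.02 CPM in SiaHi_PD1pos and 7.07, 10.2 and 5.20 CPM in SiaHi_PD1neg. The libraries of SiaHi_PD1neg and those of SiaHi_PD1pos each reached the level of the low-count filter, and those of SiaLo_PD1pos did not. A lower level of Tet1 in SiaLo_PD1pos was thus in part built into its being tested. Tet1 fell 6.32-fold in SiaHi_PD1pos (log2 -2.66, SE 0.68, adjusted p = 0.00696) and 21.8-fold in SiaLo_PD1pos (log2 -4.45, SE 0.76, adjusted p = 4.22e-04) against SiaHi_PD1neg, the second of these folds resting on few reads. SiaLo_PD1pos against SiaHi_PD1pos had a log2 difference of -1.79 (95% interval -3.37 to -0.21, unadjusted p = 0.0296, adjusted p = 0.454), which limma-voom called (adjusted p = 0.0412). SiaHi_PD1neg, where Tet1 was highest, was also highest in the dendritic cell, melanocyte, B cell and macrophage lists, and the part of those cells was not tested. Tet2, on the minus strand of chromosome 3 (start 133169440, end 133250900), was at 66.7, 60.4 and 74.9 CPM in SiaLo_PD1pos, 68.0, 42.8 and 95.6 CPM in SiaHi_PD1pos and 56.7, 71.0 and 65.2 CPM in SiaHi_PD1neg. Tet3, on the minus strand of chromosome 6 (start 83339355, end 83436066), was at 62.4, 42.6 and 63.0 CPM in SiaLo_PD1pos, 73.8, 38.4 and 85.4 CPM in SiaHi_PD1pos and 54.2, 43.2 and 67.3 CPM in SiaHi_PD1neg. All groups of both genes overlapped, and no contrast passed. The 95% intervals of SiaHi_PD1pos against SiaHi_PD1neg ran from -0.40 to 0.59 for Tet2 and from -0.31 to 0.84 for Tet3 on the log2 scale. For SiaLo_PD1pos against SiaHi_PD1pos they ran from -0.53 to 0.46 for Tet2 and from -0.80 to 0.34 for Tet3, so differences of that size could not be told from 0.

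Of the catalytic subunits of Polycomb repressive complex 2, Ezh2 was higher in both PD-1-positive groups under TMM, though lower under T cell core scaling, and Ezh1 did not pass under TMM. Ezh2, on the minus strand of chromosome 6 (start 47507073, end 47572275), was at 186, 225 and 188 CPM in SiaLo_PD1pos, 234, 201 and 198 CPM in SiaHi_PD1pos and 73.5, 81.4 and 89.2 CPM in SiaHi_PD1neg. Its PD-1-positive groups overlapped, and each lay above SiaHi_PD1neg. Ezh2 rose 2.59-fold in SiaHi_PD1pos (log2 1.37, SE 0.13, adjusted p = 3.87e-06) and 2.46-fold in SiaLo_PD1pos (log2 1.30, SE 0.13, adjusted p = 4.74e-06) against SiaHi_PD1neg. Ezh1, on the minus strand of chromosome 11 (start 101081941, end 101117289), was at 56.4, 64.0 and 54.0 CPM in SiaLo_PD1pos, 53.8, 44.9 and 55.9 CPM in SiaHi_PD1pos and 37.6, 66.0 and 46.9 CPM in SiaHi_PD1neg. Its 3 groups overlapped, and no contrast passed, with log2 differences of 0.037 for SiaHi_PD1pos (95% interval -0.38 to 0.46) and 0.21 for SiaLo_PD1pos (95% interval -0.21 to 0.63) against SiaHi_PD1neg. Without SiaHi_PD1neg replicate 2, its highest library there, SiaLo_PD1pos was called higher (log2 0.50, adjusted p = 0.0384). Reads of Ezh2 per read of Ezh1 in the same library were 3.31, 3.51 and 3.48 in SiaLo_PD1pos, 4.35, 4.48 and 3.54 in SiaHi_PD1pos and 1.95, 1.23 and 1.90 in SiaHi_PD1neg. The ratio, which no scaling changes, was lower in every SiaHi_PD1neg library than in every PD-1-positive one and was not tested. Between SiaLo_PD1pos and SiaHi_PD1pos neither subunit passed, with 95% intervals of -0.36 to 0.20 for Ezh2 and -0.24 to 0.59 for Ezh1.

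Suv39h1, which trimethylates lysine 9 of histone H3 in heterochromatin, lies on the minus strand of chromosome X (start 7927410, end 7940999). It was at 48.3, 53.4 and 46.8 CPM in SiaLo_PD1pos, 54.6, 56.6 and 53.3 CPM in SiaHi_PD1pos and 21.1, 13.4 and 27.2 CPM in SiaHi_PD1neg. The lowest of the PD-1-positive libraries lay well above the highest SiaHi_PD1neg library. Suv39h1 rose 2.67-fold in SiaHi_PD1pos (log2 1.42, SE 0.22, adjusted p = 1.77e-04) and 2.41-fold in SiaLo_PD1pos (log2 1.27, SE 0.22, adjusted p = 3.98e-04) against SiaHi_PD1neg. SiaLo_PD1pos differed from SiaHi_PD1pos by -0.15 on the log2 scale (95% interval -0.60 to 0.30), which did not pass. In all, 3 of the 10 genes had no overlap between SiaLo_PD1pos and SiaHi_PD1pos, Dnmt3b higher and Uhrf1 and Tet1 lower in SiaLo_PD1pos, against 19.4% of all tested genes, 9.42% higher and 9.95% lower. Against SiaHi_PD1neg, 7 of the 10 had none in either contrast, 6 higher and 1 lower. The 1 lower was Tet1, which had few reads in both PD-1-positive groups. Of all genes, 47.5% had none in SiaHi_PD1pos, 24.1% higher and 23.5% lower, and 54.4% had none in SiaLo_PD1pos, 29.3% higher and 25.1% lower. Coordinates of the 10 genes are those of the table, whose build its header does not name. Of 37506 genes named in both the table and RefSeq's GRCm38.p6 218 (0.581%) had the same start and end.

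Setting T cell transcripts equal turned the contrasts with SiaHi_PD1neg round. With library factors taken from the 10 T cell core genes, the median of all tested genes moved to -1.87 for SiaHi_PD1pos and to -1.99 for SiaLo_PD1pos against SiaHi_PD1neg on the log2 scale, while under TMM it was 0.023 for SiaHi_PD1pos and 0.011 for SiaLo_PD1pos. Per T cell transcript, 7 of the 10 genes were lower in SiaHi_PD1pos and 9 in SiaLo_PD1pos than in SiaHi_PD1neg, where 80.5% of all genes were lower in SiaHi_PD1pos and 81.9% in SiaLo_PD1pos. Relative to those medians, Dnmt1 (-0.53 in SiaHi_PD1pos and -0.57 in SiaLo_PD1pos), Uhrf1 (-0.36 and -0.70), Ezh2 (-0.52 and -0.72), Suv39h1 (-0.49 and -0.75) and Dnmt3b (-0.19 and 0.35) lay above them. Dnmt3a was at -1.16 in SiaHi_PD1pos and -1.35 in SiaLo_PD1pos, also above. Ezh1 was at -1.84 and -1.79, Tet2 at -1.75 and -1.93 and Tet3 at -1.59 and -1.97, close to them, and Tet1 at -4.52 and -6.41, far under them. A scaling shifts all genes of a contrast together, so that distances between genes stay and signs can turn. Between SiaLo_PD1pos and SiaHi_PD1pos this scaling moved the median of all genes by -0.12, and 0 of the 10 genes were called, where 1.41% of all genes were.

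**Figure D2:**
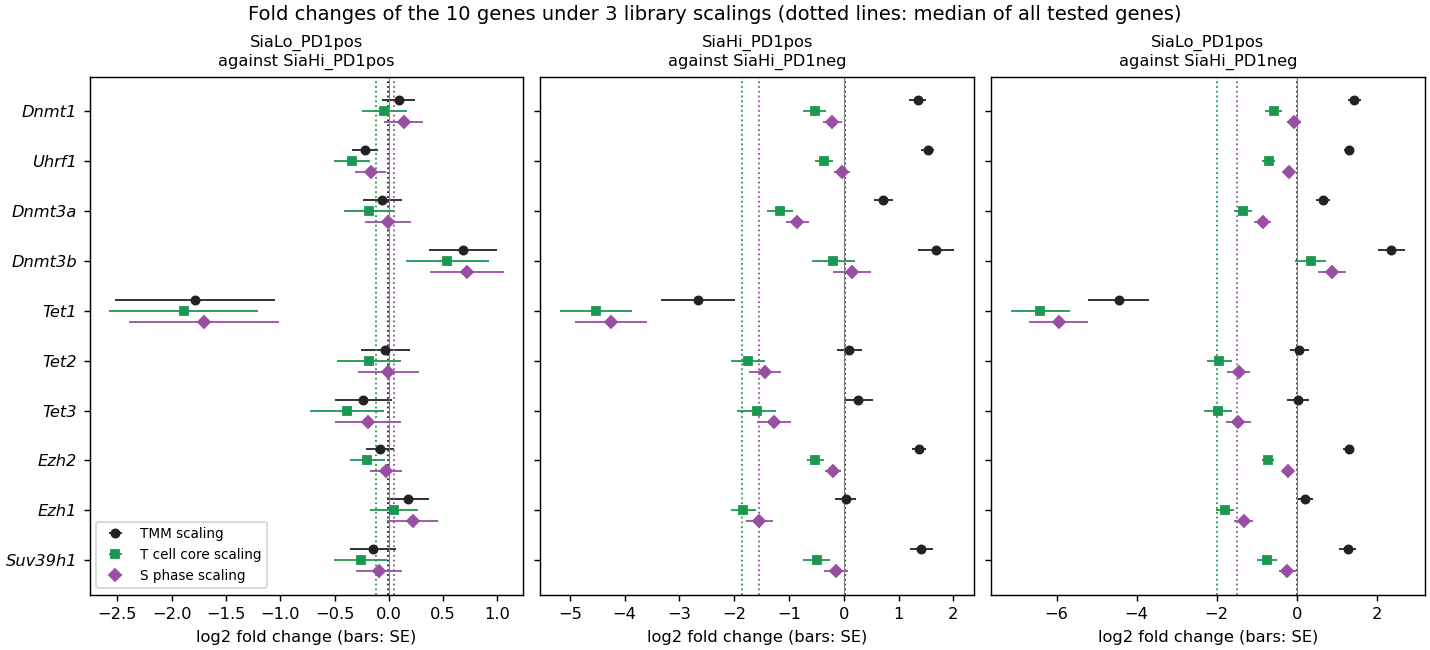
The log2 fold change (x axis, bars for the SE) of each of the 10 genes is drawn for the 3 contrasts under TMM, T cell core and S phase scaling, with a dotted line at the median of all tested genes in the colour of each scaling. In the contrasts with SiaHi_PD1neg the points of Dnmt1, Uhrf1, Ezh2, Suv39h1 and Dnmt3b lie right of the median line under each scaling, though left of 0 under T cell core scaling in all but Dnmt3b of SiaLo_PD1pos, those of Tet2, Tet3 and Ezh1 lie near the line, and Tet1 lies left of it.

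Dividing cells were compared next, since Dnmt1, Uhrf1 and Ezh2 are known to be transcribed with the genes of DNA replication. All 30 S phase genes were higher in both PD-1-positive groups than in SiaHi_PD1neg under TMM scaling, with median log2 differences of 1.72 in SiaHi_PD1pos and 1.71 in SiaLo_PD1pos, though 11 of the 30 in SiaHi_PD1pos and 14 in SiaLo_PD1pos were lower and 0 higher under T cell core scaling. Higher under TMM were 21.0% of all genes in SiaHi_PD1pos and 20.5% in SiaLo_PD1pos. Under T cell core scaling 80.5% and 81.9% of all genes were lower, in the same order. Mcm6, a subunit of the replicative helicase, was at 467 ± 33.1 CPM in SiaLo_PD1pos, 475 ± 11.9 in SiaHi_PD1pos and 130.2 ± 4.65 in SiaHi_PD1neg (mean ± SD, n = 3). Each gene was then set against the mean log2 CPM of the 30 genes in its own library, which no library scaling changes. On this scale Dnmt1 was at 1.64, 1.75 and 1.84 in SiaLo_PD1pos, 1.72, 1.15 and 1.86 in SiaHi_PD1pos and 1.66, 1.74 and 2.00 in SiaHi_PD1neg. Uhrf1 was at 0.77, 0.78 and 0.88 in SiaLo_PD1pos, 0.99, 0.76 and 1.15 in SiaHi_PD1pos and 0.95, 0.95 and 1.10 in SiaHi_PD1neg. Ezh2 was at 1.13, 1.31 and 1.20 in SiaLo_PD1pos, 1.32, 1.07 and 1.30 in SiaHi_PD1pos and 1.19, 1.53 and 1.55 in SiaHi_PD1neg. Each of these genes spanned less than 1 log2 unit over all 9 libraries on this scale, as did Suv39h1, at -0.82 to -0.77 in SiaLo_PD1pos, -0.77 to -0.58 in SiaHi_PD1pos and -1.06 to -0.16 in SiaHi_PD1neg. Ezh1 was at -0.60, -0.50 and -0.59 in SiaLo_PD1pos, -0.80, -1.09 and -0.52 in SiaHi_PD1pos and 0.22, 1.22 and 0.62 in SiaHi_PD1neg, so that every PD-1-positive library lay under every SiaHi_PD1neg library.

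In edgeR with library factors taken from the 30 S phase genes, a scaling chosen after seeing the data, 0 of Dnmt1, Uhrf1, Ezh2 and Suv39h1 were called in either contrast with SiaHi_PD1neg. Their log2 differences were -0.21, -0.031, -0.20 and -0.14 for SiaHi_PD1pos (SE 0.14 to 0.22, adjusted p = 0.228 to 0.847) and -0.069, -0.20, -0.22 and -0.23 for SiaLo_PD1pos (adjusted p = 0.180 to 0.734). Of all 15292 genes, 3331 were not called in SiaHi_PD1pos and 3388 in SiaLo_PD1pos. Of the 30 S phase genes themselves, 4 were called higher and 8 lower in each contrast. The scale was chosen after seeing the data, so these missing calls are no separate evidence that the genes follow replication. Called lower in both contrasts were Dnmt3a, Tet1, Tet2, Tet3 and Ezh1, where 75.8% of all genes in SiaHi_PD1pos and 75.0% in SiaLo_PD1pos were lower too. Dnmt3a was at -0.85 in SiaHi_PD1pos and -0.85 in SiaLo_PD1pos, above the median of all genes on this scale, which was -1.54 in SiaHi_PD1pos. Dnmt3b was at 0.16 in SiaHi_PD1pos (adjusted p = 0.686) and was called higher in SiaLo_PD1pos at 0.88 (adjusted p = 0.0346), where 2.84% of all genes were called higher, against 2.37% in SiaHi_PD1pos.

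**Figure D3:**
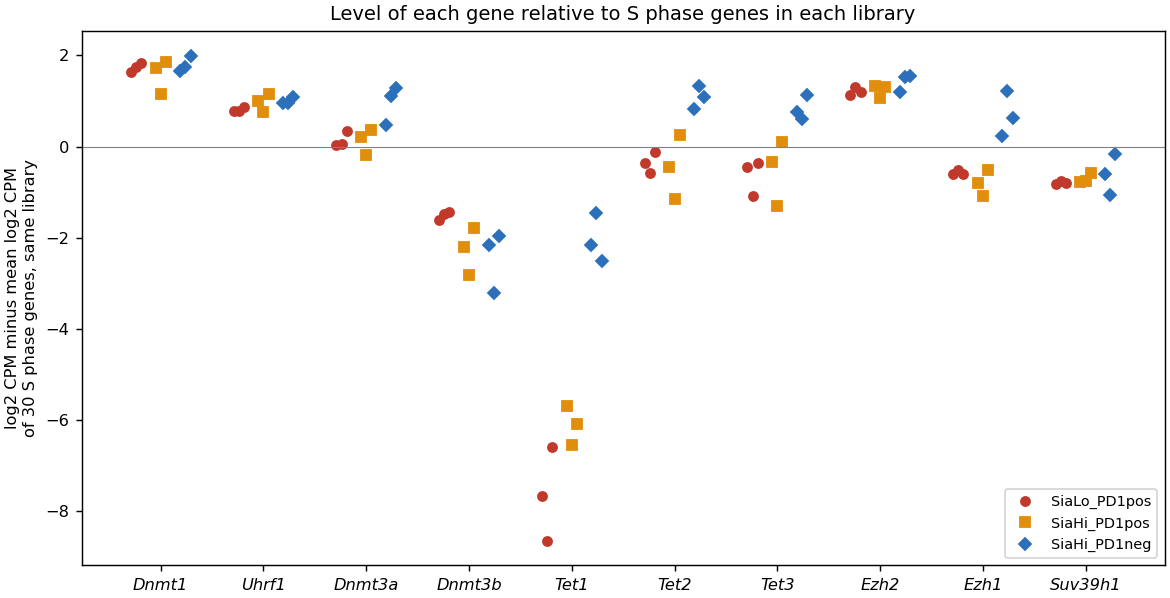
The log2 CPM of each gene minus the mean log2 CPM of 30 S phase genes in the same library (y axis) is plotted for the 9 libraries, SiaLo_PD1pos left, SiaHi_PD1pos middle and SiaHi_PD1neg right. Dnmt1, Uhrf1, Ezh2 and Suv39h1 each span less than 1 log2 unit over the 9 libraries, while Dnmt3a, Tet1, Tet2, Tet3 and Ezh1 are higher in SiaHi_PD1neg. Suv39h1 runs from -1.06 to -0.16 within SiaHi_PD1neg.

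One library stood apart by gene length. In SiaHi_PD1pos replicate 2, genes with under 1.5 kb of exons lay 0.60 above the other 2 libraries of the group in median log2 CPM (428 genes), and genes with over 12 kb lay -0.56 from them (517 genes). SiaHi_PD1pos replicate 3 leaned the other way, from -0.43 to 0.38, and libraries of the other groups stayed between -0.22 and 0.15. Dnmt3a, Tet1, Tet2 and Tet3 have 15.5 to 16.9 kb of exons, and replicate 2 was the lowest SiaHi_PD1pos library for Dnmt1, Dnmt3a, Dnmt3b, Uhrf1, Tet1, Tet2, Tet3 and Ezh1. It also had the highest dendritic cell sum of its group, 5186 CPM. Without it, 0 of the 10 genes were called between SiaLo_PD1pos and SiaHi_PD1pos, and the 6 higher and 1 lower against SiaHi_PD1neg remained in number for both groups. Tet3 then had a log2 difference of -0.48 between SiaLo_PD1pos and SiaHi_PD1pos (adjusted p = 0.558), and of 0.55 between SiaHi_PD1pos and SiaHi_PD1neg (adjusted p = 0.0535). Tet2 was at 0.36 in that contrast (adjusted p = 0.110), and Dnmt3b at 0.51 between SiaLo_PD1pos and SiaHi_PD1pos (adjusted p = 0.873).

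**Figure D4:**
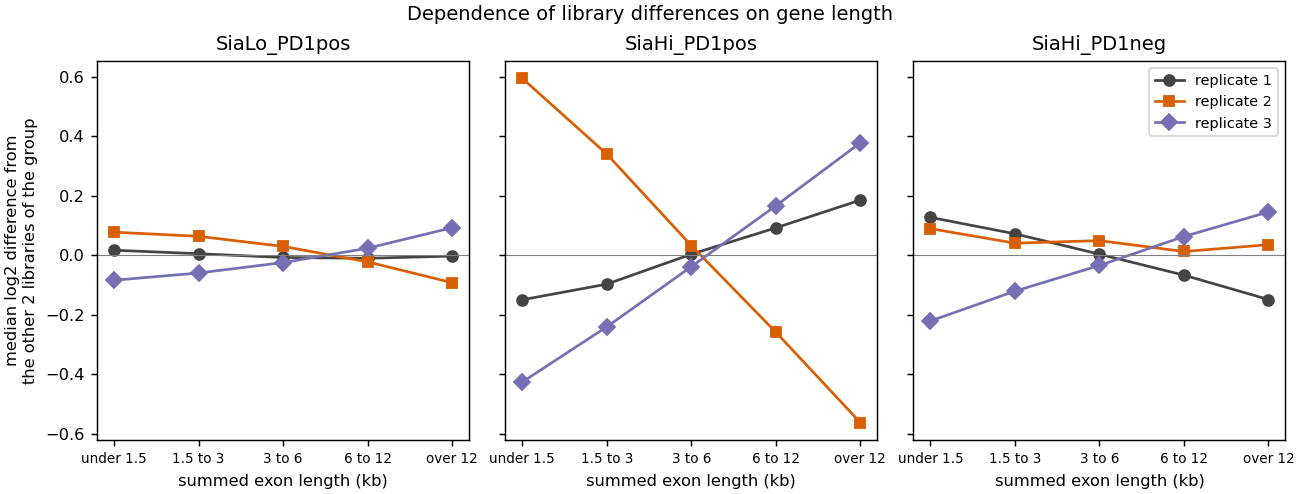
For each library, the median log2 difference from the other 2 libraries of its group (y axis) is drawn over 5 classes of summed exon length in kb (x axis). SiaHi_PD1pos replicate 2 runs from 0.60 in the shortest genes to -0.56 in the longest, and the SiaLo_PD1pos libraries stay between -0.092 and 0.093.

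Levels were compared between genes only per length of exons, in CPM per kb. In SiaLo_PD1pos the order was Dnmt1 (39.1 CPM per kb), Uhrf1 (35.3), Ezh2 (29.9), Suv39h1 (9.39), Ezh1 (7.81), Dnmt3b (5.92), Dnmt3a (5.70), Tet2 (3.99), Tet3 (3.36) and Tet1 (0.0223). The library ranges of Dnmt1 and Uhrf1, of Dnmt3b and Dnmt3a and of Tet2 and Tet3 overlapped there. In SiaHi_PD1pos, Uhrf1 (41.1), Dnmt1 (36.6) and Ezh2 (31.6) led with overlapping ranges, before Suv39h1 (10.4) and the overlapping Ezh1 (6.92), Dnmt3a (5.93), Tet2 (4.08), Tet3 (3.95) and Dnmt3b (3.68), with Tet1 at 0.0762. In SiaHi_PD1neg, Dnmt1 (14.4), Uhrf1 (14.3) and Ezh2 (12.2) overlapped at the top, followed by Ezh1 (6.74), Suv39h1 (3.91), Tet2 (3.81), Dnmt3a (3.60) and Tet3 (3.29), with Dnmt3b (1.15) and Tet1 (0.485) overlapping at the bottom. Ezh1 ranked above Suv39h1 in SiaHi_PD1neg, where their ranges overlapped, and under it in both PD-1-positive groups, where they did not.

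Other genes of the same pathways were counted next. Against SiaHi_PD1neg under TMM, 8 of 10 tested subunits and cofactors of Polycomb repressive complex 2 were higher and 0 lower in both SiaHi_PD1pos (median log2 0.96) and SiaLo_PD1pos (0.88), where the medians of all genes were 0.023 and 0.011, and under T cell core scaling 8 were lower and 0 higher. Suz12, a core subunit, was at 238 ± 17.4 CPM in SiaLo_PD1pos, 218 ± 20.4 in SiaHi_PD1pos and 108 ± 8.52 in SiaHi_PD1neg. The histone binder Rbbp7 was at 348 ± 16.9 CPM in SiaLo_PD1pos, 349.7 ± 22.5 in SiaHi_PD1pos and 194 ± 5.00 in SiaHi_PD1neg. Aebp2, a cofactor, rose 2.09-fold in SiaHi_PD1pos and 2.30-fold in SiaLo_PD1pos (edgeR adjusted p = 9.23e-05 and 2.93e-05). Of 21 subunits of Polycomb repressive complex 1, 10 were higher and 2 lower in SiaHi_PD1pos, and 8 higher and 2 lower in SiaLo_PD1pos, with medians of 0.56 and 0.63, while under T cell core scaling 19 were lower and 0 higher in each. Of all genes, 21.0% in SiaHi_PD1pos and 20.5% in SiaLo_PD1pos were higher under TMM, and 80.5% and 81.9% were lower under T cell core scaling, and the counts of the next lists stand against the same shares. Phc1, a polyhomeotic subunit, was lower in both PD-1-positive groups, at 13.6 ± 2.34 CPM in SiaLo_PD1pos, 15.5 ± 1.45 in SiaHi_PD1pos and 85.7 ± 28.3 in SiaHi_PD1neg, under TMM and under T cell core scaling. Under TMM, Bcor rose 2.00-fold in SiaHi_PD1pos (adjusted p = 1.52e-04) and 1.86-fold in SiaLo_PD1pos (adjusted p = 3.53e-04). Yaf2 rose 1.87-fold in SiaHi_PD1pos (adjusted p = 5.49e-04) and 2.10-fold in SiaLo_PD1pos (adjusted p = 1.35e-04).

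Among 6 enzymes that oppose Polycomb marks, 2 were higher and 0 lower in each PD-1-positive group against SiaHi_PD1neg under TMM, with medians of 0.14 in SiaHi_PD1pos and 0.27 in SiaLo_PD1pos, and all 6 were lower under T cell core scaling. They were Bap1, which removes ubiquitin from histone H2A (1.53-fold in SiaHi_PD1pos and 1.43-fold in SiaLo_PD1pos), and its partner Asxl1 (1.61-fold and 1.40-fold). Kdm6b, which demethylates lysine 27 of histone H3, did not pass, at 124 ± 33.1 CPM in SiaLo_PD1pos, 161 ± 79.9 in SiaHi_PD1pos and 171 ± 36.8 in SiaHi_PD1neg. Of 15 other genes of histone H3 lysine 9 methylation, 5 were higher and 0 lower in SiaHi_PD1pos and 6 higher and 1 lower in SiaLo_PD1pos against SiaHi_PD1neg, with 14 lower in each under T cell core scaling. They included genes of heterochromatin protein 1, with Cbx3 at 181 ± 9.12 CPM in SiaLo_PD1pos, 168 ± 15.9 in SiaHi_PD1pos and 73.5 ± 5.37 in SiaHi_PD1neg. Cbx5 rose 1.86-fold in SiaHi_PD1pos and 2.14-fold in SiaLo_PD1pos, Cbx1 1.86-fold and 1.90-fold, in the same order. The corepressor Trim28 also rose in both, at 196 ± 5.10 CPM in SiaLo_PD1pos, 218 ± 7.67 in SiaHi_PD1pos and 122 ± 32.8 in SiaHi_PD1neg. Of 21 other genes of DNA methylation, its reading and base excision, 7 were higher and 3 lower in each PD-1-positive group, and 18 were lower and 0 higher under T cell core scaling. Hells, the chromatin remodeller needed for DNA methylation, was at 156 ± 9.63 CPM in SiaLo_PD1pos, 147 ± 9.51 in SiaHi_PD1pos and 48.0 ± 4.96 in SiaHi_PD1neg. Uhrf2, the relative of Uhrf1, was at 273 ± 25.5 CPM in SiaLo_PD1pos, 207 ± 35.6 in SiaHi_PD1pos and 71.8 ± 7.54 in SiaHi_PD1neg, and Tdg, the glycosylase that removes oxidised 5-methylcytosine, at 78.0 ± 3.56, 83.2 ± 7.69 and 32.2 ± 2.41 CPM in the same order of groups. Gadd45b, linked to active demethylation, did not pass at 158, 173 and 161 CPM in SiaLo_PD1pos and 218, 314 and 241 CPM in SiaHi_PD1pos (log2 -0.65, adjusted p = 0.0880) under TMM, and passed under T cell core scaling (log2 -0.75, adjusted p = 0.0474).

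Between SiaLo_PD1pos and SiaHi_PD1pos, edgeR called 0 genes of these 5 lists. At an unadjusted p under 0.05 there were 0 of the complex 2 list, 1 lower of complex 1, 0 of the opposing enzymes, 0 of the lysine 9 list and 4 higher and 1 lower of the DNA methylation list, where 3.30% of all genes were higher and 5.36% lower. Under T cell core scaling 1 gene of the DNA methylation list, Gadd45b, was lower. DESeq2 called 1 gene lower in the DNA methylation list and 0 elsewhere, and limma-voom called 1 lower in the complex 1 list, 2 higher and 2 lower in the DNA methylation list and 0 in the others. List medians were between -0.063 and 0.099, against -0.0063 for all genes.

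Of 9 naive and memory genes that Dnmt3a, Ezh2 and Suv39h1 are known to silence, 7 were lower in SiaLo_PD1pos than in SiaHi_PD1pos and 2 were not called, while the enzymes themselves did not pass the test in that contrast. Of all genes, 1.13% fell in that contrast. Under T cell core scaling 7 of the 9 fell, and without SiaHi_PD1pos replicate 2 there were 6. Tcf7, the transcription factor of stem-like cells, was at 58.1, 46.1 and 68.2 CPM in SiaLo_PD1pos and 205, 167 and 211 CPM in SiaHi_PD1pos, without overlap. Its edgeR log2 difference was -1.76 (adjusted p = 5.67e-05), while those of Dnmt3a, Ezh2 and Suv39h1 were -0.059, -0.078 and -0.15 in the same libraries. Against SiaHi_PD1neg, 4 of the 9 fell and 3 rose in SiaHi_PD1pos, and 7 fell and 2 rose in SiaLo_PD1pos, while under T cell core scaling 0 rose in either contrast, 7 fell in SiaHi_PD1pos and 9 in SiaLo_PD1pos. Of all genes, 19.2% fell and 21.0% rose in SiaHi_PD1pos and 18.9% fell and 20.5% rose in SiaLo_PD1pos under TMM. Under T cell core scaling 80.5% of all genes fell in SiaHi_PD1pos and 81.9% in SiaLo_PD1pos. Il7r, the interleukin-7 receptor, was at 14.1 ± 1.52 CPM in SiaLo_PD1pos, 48.7 ± 18.4 in SiaHi_PD1pos and 231 ± 32.9 in SiaHi_PD1neg, and Klf2, a regulator of lymphoid homing, at 68.0 ± 7.87, 128 ± 22.2 and 519 ± 129 CPM in that order. This list was chosen with earlier results of these data known and is no independent evidence of its direction. Methylation and histone marks of these genes were not measured, and lists of other cells moved with them in SiaLo_PD1pos against SiaHi_PD1pos. Lower there were 12 of 17 dendritic cell genes (median log2 -1.06), 4 of 10 plasmacytoid genes (-1.13), 3 of 7 tested B cell genes (-1.30) and 4 of 12 genes of CD4 and regulatory T cells (-0.85). The part of those cells was not tested.

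Genes most like members of the set over the 9 libraries were named by Pearson correlation of log2 CPM, given as a description, since the points share their libraries and mostly set SiaHi_PD1neg apart from the rest. Dnmt1 was most like the proliferation marker Mki67 (r = 0.996), Ezh2 was most like Kpnb1 (0.994), Mcm3 (0.993) and Fignl1 (0.992), and Suv39h1 like Pkmyt1 and Ppat (both 0.996). Uhrf1 was most like Ipo5 and Dgkz (both 0.998), Dnmt3a like Srrt (0.985) and Dnmt3b like Selenoi (0.994). Tet1 was most like Tns1 (0.976), Tet2 like Mycbp2 (0.985) and Ezh1 like Rrnad1 (0.970). Among the 3 most alike genes of each of the 10, Mki67 and Mcm3 were in the S phase and mitosis lists.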

How the data were processed

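Raw counts per gene for 9 libraries were deposited by the authors as whole numbers, without normalization. Per the submitters' processing notes, Trim Galore 0.6.5, STAR 2.7.6a, featureCounts 1.6.3 and the build GRCm38 were used, with no strand setting given in the sources used here. Totals were 9714020 to 15030442 reads per library. Without molecular identifiers, reads are not independent molecules.

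Groups came from the sample labels (the library names of the PD-1-negative group read PD-1 low). Genes were filtered with edgeR's filterByExpr (15292 of 56860 kept), scaled with TMM (factors 0.928 to 1.05) and tested in 1 quasi-likelihood model over 3 groups with 6 residual degrees of freedom and a common biological coefficient of variation of 0.313 (edgeR 4.0.16, limma 3.58.1, DESeq2 1.42.0, R 4.3.3, Python 3.11.15, numpy 2.4.6, pandas 2.3.3). The fit was run on simulated data in which few genes changed, higher and lower in equal number. That setting does not cover contrasts in which a large share of genes differs, as those with SiaHi_PD1neg. Log2 CPM used a prior count of 2. Likeness was ranked over 10266 genes, and gene length was compared over 7916 genes with a mean log2 CPM over 4.

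Members and lists were chosen with earlier results of these data known. From each list the text names up to 3 called genes per contrast with the smallest adjusted p, and the one with the highest mean CPM. Pdcd1, St6gal1, Cd3e, Cd8a and Mki67 were taken as checks, and the 3 most correlated genes with a mean of at least 5 CPM were taken for each of the 10. Some genes that this rule selects are not reported here. Alternatives were DESeq2 size factors, no composition scaling, T cell core scaling, no low-count filter, at least 5 CPM in 3 libraries, DESeq2, limma-voom (with quality weights per sample), a fit on 6 libraries, a replicate block, leaving out 104 marker and mitochondrial genes, and leaving out each library. S phase scaling and the list counts without SiaHi_PD1pos replicate 2 were chosen after seeing the data.

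Reads of overlapping genes on the opposite strand cannot be told apart. Exons overlapped Dnmt3aos over 133 bases of Dnmt3a, Gm42567 over 43 bases of Tet2 and Gm14820 over 908 bases of Suv39h1, and these genes had 18, 14 and 2 reads in all. Replicates differed beyond sampling noise (chi-square per degree of freedom 7.04 to 57.9).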

Additional observations from a re-analysis of the deposited data

How the results depend on the processing

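Main counts of called genes were 214 for SiaLo_PD1pos against SiaHi_PD1pos, 6155 for SiaHi_PD1pos against SiaHi_PD1neg and 6029 for SiaLo_PD1pos against SiaHi_PD1neg. For the first of these contrasts DESeq2 called 460 genes, limma-voom 1273 and edgeR without a low-count filter 535, and limma-voom called 3 of the 10 genes, 1 higher and 2 lower. The causes of these differences were not tested. Scaling moved the contrasts with SiaHi_PD1neg most. T cell core scaling called 12599 genes for SiaHi_PD1pos and 12812 for SiaLo_PD1pos, with 0 of the 10 higher in both, 7 lower in SiaHi_PD1pos and 9 in SiaLo_PD1pos. S phase scaling called 11961 and 11904, with 0 of the 10 higher and 5 lower in SiaHi_PD1pos and 1 higher and 5 lower in SiaLo_PD1pos. By construction, both move all genes together.

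Log2 values that turned sign under T cell core scaling were, for SiaHi_PD1pos against SiaHi_PD1neg, Dnmt1 -0.53, Dnmt3a -1.16, Dnmt3b -0.19, Uhrf1 -0.36, Tet2 -1.75, Tet3 -1.59, Ezh2 -0.52, Ezh1 -1.84 and Suv39h1 -0.49. For SiaLo_PD1pos against SiaHi_PD1neg they were Dnmt1 -0.57, Dnmt3a -1.35, Uhrf1 -0.70, Tet2 -1.93, Tet3 -1.97, Ezh2 -0.72, Ezh1 -1.79 and Suv39h1 -0.75, and for SiaLo_PD1pos against SiaHi_PD1pos Dnmt1 -0.042. Under S phase scaling they were, for SiaHi_PD1pos against SiaHi_PD1neg, Dnmt1 -0.21, Dnmt3a -0.85, Uhrf1 -0.031, Tet2 -1.44, Tet3 -1.27, Ezh2 -0.20, Ezh1 -1.54 and Suv39h1 -0.14, and for SiaLo_PD1pos against SiaHi_PD1neg Dnmt1 -0.069, Dnmt3a -0.85, Uhrf1 -0.20, Tet2 -1.45, Tet3 -1.47, Ezh2 -0.22, Ezh1 -1.32 and Suv39h1 -0.23. Uncalled values near 0 also turned. With at least 5 CPM in 3 libraries, Ezh1 was at -0.063 and Tet2 at -0.0018 for SiaHi_PD1pos, and Tet2 at -0.034 and Tet3 at -0.071 for SiaLo_PD1pos, against SiaHi_PD1neg. Tet3 was at -0.013 for SiaLo_PD1pos against SiaHi_PD1neg with DESeq2 and with its size factors in edgeR, and Dnmt1 at -0.091 for SiaLo_PD1pos against SiaHi_PD1pos in limma-voom.

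Leaving out 1 library at a time gave 105 to 232 called genes for SiaLo_PD1pos against SiaHi_PD1pos, with 0 of the 10 among them. For SiaHi_PD1pos against SiaHi_PD1neg it gave 4885 to 6325 with 7 of the 10, and for SiaLo_PD1pos against SiaHi_PD1neg 4532 to 6576 with 7 to 8 of the 10, 6 to 7 higher. For SiaLo_PD1pos against SiaHi_PD1pos, Dnmt1 ranged from -0.034 to 0.20, Dnmt3a from -0.14 to 0.021, Ezh2 from -0.16 to 0.0058 and Tet2 from -0.26 to 0.28. For SiaHi_PD1pos against SiaHi_PD1neg, Tet2 ranged from -0.20 to 0.36 and Ezh1 from -0.11 to 0.32, and for SiaLo_PD1pos against SiaHi_PD1neg Tet3 from -0.077 to 0.24. Labels number replicates 1 to 3 in each group, but same-numbered libraries correlated at -0.0109 to 0.118 over 9 pairs in their deviations from group means, so the numbers were not taken to pair them. With a replicate block, 264, 6200 and 6105 genes and 0, 7 and 7 of the 10 were called, and Tet2 was at 0.0064 for SiaLo_PD1pos against SiaHi_PD1pos.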

Other observations

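The E2F words were present in 1 of 26 G2 and mitosis genes with a RefSeq window (3.85%) and in 8 of 24 S phase genes (33.3%), against 2.6% of 27025 genes in all, and the difference between the lists was not tested. The 30 mitosis genes had 29 higher and 0 lower in each PD-1-positive group than in SiaHi_PD1neg under TMM scaling, with median log2 differences of 1.67 in SiaHi_PD1pos and 1.79 in SiaLo_PD1pos, while under T cell core scaling 8 were lower in SiaHi_PD1pos and 9 in SiaLo_PD1pos and 0 were higher. Higher under TMM were 21.0% of all genes in SiaHi_PD1pos and 20.5% in SiaLo_PD1pos. Under T cell core scaling 80.5% and 81.9% of all genes were lower, in the same order. Top2a, the topoisomerase of dividing cells, was at 677 ± 62.5 CPM in SiaLo_PD1pos, 604 ± 63.1 in SiaHi_PD1pos and 166 ± 19.0 in SiaHi_PD1neg (mean ± SD, n = 3). The spindle motor Kif11 was at 191 ± 15.3 CPM in SiaLo_PD1pos, 174 ± 18.2 in SiaHi_PD1pos and 46.6 ± 6.39 in SiaHi_PD1neg.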
